A study of Homo sapiens with 16 samples.

Results

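Expression of 9 genes of the NRF2 antioxidant system was examined in P493-6 B cells kept at a high or a medium MYC level, either with DMSO or under inhibition of the N-myristoyltransferases (NMTs), the enzymes that attach myristate to protein N-termini. The genes were chosen by symbol: NFE2L2, KEAP1, GCLC, GCLM, HMOX1, NQO1, TXNRD1, SRXN1 and TXN. They are 9 of the 58051 gene identifiers in the deposited table, and all 9 were among the 13765 genes tested, which had a mean of at least 10 normalized counts over the 16 libraries. Among DMSO controls 7 of the 9 passed the test's threshold between high and medium MYC cells, beside 76.2% of all genes tested, so this was common. Only the medium MYC cells were given doxycycline and beta-estradiol. NQO1 and HMOX1 were higher at medium MYC, whereas TXNRD1, TXN, SRXN1, GCLC and GCLM were lower. The inhibitor lowered NQO1 at both MYC levels and HMOX1 at medium MYC, and no member rose past the test's threshold with it.

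NRF2, the transcription factor encoded by NFE2L2, is controlled mainly through its protein. KEAP1 holds it for ubiquitination and degradation until electrophiles or oxidants modify KEAP1's cysteines, after which NRF2 accumulates, pairs with a small MAF protein and binds antioxidant response elements (AREs). Its textbook targets make glutathione, keep thioredoxin and peroxiredoxins reduced, and detoxify quinones and heme, and several of them are also under the control of other factors, such as BACH1 at HMOX1. Only mRNA was measured here, so neither NRF2 protein nor its binding to DNA was observed.

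P493-6 is a single immortalised human B cell line in which doxycycline represses a MYC transgene and the viral factor EBNA2 is active only with oestrogen. Cells at high MYC were kept in DMEM with serum and no further additive, while those at medium MYC were given doxycycline (0.1 µg/mL) together with beta-estradiol (1 µM) from 24 h before treatment. Each was then exposed to IMP1088, an NMT inhibitor, at 100 nM or to the vehicle DMSO for 24 h, giving 4 groups of 4 libraries: high MYC with DMSO, high MYC with IMP1088, medium MYC with DMSO and medium MYC with IMP1088. MYC level, doxycycline and estradiol cannot be told apart in this design. Nothing in the labels says that the 4 libraries of a group came from separate cultures, so p-values measure the spread between these libraries, which may be technical. In bulk RNA, fewer cells that express a gene and less of its RNA per cell cannot be told apart either.

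Depth ran from 8755296 to 13858534 reads a library, with 18899 to 21081 genes detected. MYC mRNA lay between 29693 and 34376 normalized counts in high MYC controls and between 904 and 1022 in medium MYC controls. In inhibitor libraries it was above the matching controls without overlap, between 46843 and 48049 at high MYC and between 1328 and 1444 at medium MYC, so MYC mRNA itself moved with the inhibitor. Its part in the results was not tested. The B cell markers CD79A, CD79B, MS4A1, PAX5 and CD22 were present in every library, and the erythroid marker HBB was at 0 in every library. Summed normalized counts of these 5 B cell markers ran from 23284 to 23454 in high MYC controls, 18874 to 19840.1 with the inhibitor there, 37963 to 38720.2 in medium MYC controls and 33532 to 34737 with the inhibitor. The sum moved in the same direction as NQO1 with MYC level and with inhibitor, but between MYC levels only through MS4A1, PAX5 and CD22. CD79A and CD79B were lower in medium MYC controls, with means of 2854 and 1464 beside 3096 and 1574 in high MYC controls. Of the 3 fibroblast markers, PDGFRB and COL1A1 were higher at medium MYC and COL1A2 stayed at or below 6.85, with sums of 122 to 134 in high MYC controls and 571 to 649 in medium MYC controls. With the inhibitor the fibroblast sums ran from 68.1 to 96.8 at high MYC and from 497 to 537 at medium MYC. Sums of the 3 T cell, 3 myeloid and 3 epithelial markers lay between 40.8 and 93.6, 41.4 and 83.4, and 54.98 and 109.5 over all libraries, with CD3D at most 2.57 and KRT19 at most 1.118. Within the epithelial list EPCAM and CDH1 moved in opposite directions, with means of 62.1 and 0.188 in high MYC controls and 13.1 and 55.4 in medium MYC controls. The part of these markers in the results on NQO1 and HMOX1 was not tested.

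The regulatory sequence of the members was examined first, since AREs are the sites through which NRF2 acts. RefSeq windows on GRCh38.p14, from 250 bases before to 50 bases after an annotated start, were found for 8 of the 9 members, with 11 windows in all. They were searched on both strands for the ARE core TGACNNNGC. A match was present in 13.3% of all 35116 windows and in 4 of the 11 member windows, belonging to GCLM, TXNRD1 and KEAP1. The TXNRD1 and GCLM sequences are shown because they carry such matches, and that of TXN for contrast. TXN mRNA differed between MYC levels in the same direction as that of TXNRD1, but the TXN window has no match. Capitals mark bases of an ARE core match on either strand, and all are written 5′ to 3′ on the gene's own strand. Annotated untranslated bases are left out, except the last base of the TXNRD1 and GCLM stretches, where a match runs into them.
TXNRD1, chr12:104215529-104215779 (+): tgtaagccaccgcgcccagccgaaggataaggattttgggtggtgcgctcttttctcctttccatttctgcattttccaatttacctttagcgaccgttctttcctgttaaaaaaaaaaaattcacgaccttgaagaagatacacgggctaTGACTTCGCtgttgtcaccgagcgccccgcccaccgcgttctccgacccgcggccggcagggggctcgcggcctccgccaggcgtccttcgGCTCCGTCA
GCLM, chr1:93909456-93909680 (-): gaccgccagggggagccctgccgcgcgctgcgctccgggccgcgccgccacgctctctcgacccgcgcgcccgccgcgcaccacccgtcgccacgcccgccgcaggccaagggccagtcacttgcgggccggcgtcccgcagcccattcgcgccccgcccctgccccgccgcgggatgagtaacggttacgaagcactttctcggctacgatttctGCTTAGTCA
TXN, chr9:110256641-110256757 (-): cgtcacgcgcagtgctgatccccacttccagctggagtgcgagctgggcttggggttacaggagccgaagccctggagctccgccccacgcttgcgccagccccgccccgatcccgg

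In the TXNRD1 window the forward match TGACTTCGC began 99 bases before the start, and the reverse match GCTCCGTCA began 8 bases before it. A second TXNRD1 window, at an internal start at chr12:104286782-104287081, held GCTTTGTCA beginning 102 bases before that start. The GCLM match, GCTTAGTCA, began 34 bases before the start. The same 9 letters stood 31 bases before a KEAP1 start, where TGACACGGC also began 54 bases upstream. None of the 11 member windows held the AP-1 site TGANTCA (7.71% of all windows), the E-box CACGTG bound by MYC and MAX (7.26%) or the ATF4 composite letters TGATGNAA (3.62%). These letter matches are a description of the windows and not bound sites, and a window without them says nothing of NRF2 acting from elsewhere.

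The transcript of the pathway's own activator varied little. NFE2L2 (ENSG00000116044, chromosome 2, 177227595 to 177392697, minus strand) had 440, 518, 487 and 472 normalized counts in the 4 high MYC controls and 453, 450.3, 484 and 472 with the inhibitor. At medium MYC its values were 431, 445, 455 and 455 in controls and 482, 441, 445 and 497 with the inhibitor. The groups overlapped, and the highest group mean was 1.07 times the lowest. Its log2 change with the inhibitor was -0.04 (95% interval -0.15 to 0.07, limma adjusted p 0.625) at high MYC and 0.06 (-0.05 to 0.17, limma adjusted p 0.446) at medium MYC.

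KEAP1, the adaptor that hands NRF2 to a ubiquitin ligase (ENSG00000079999, chromosome 19, 10486120 to 10503741, minus strand), was not called with the inhibitor at either MYC level. High MYC controls had 669, 613, 635 and 671 normalized counts, and inhibitor libraries there had 581, 538, 613 and 647. At medium MYC the values were 609, 601, 650.2 and 594 in controls and 579, 613, 581 and 583 with the inhibitor. Groups overlapped within both MYC levels, and the log2 change was -0.12 (95% interval -0.23 to -0.02, limma adjusted p 0.0826) at high MYC and -0.06 (limma adjusted p 0.449) at medium MYC. The change at high MYC depended on single libraries, at -0.17 without the fourth inhibitor library (limma adjusted p 0.0239) and -0.08 without inhibitor library 2 (limma adjusted p 0.301). With the GC correction it was -0.04 (limma adjusted p 0.577).

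Neither regulator passed the test between MYC levels among controls, with log2 changes of -0.10 for NFE2L2 (limma adjusted p 0.0978) and -0.08 for KEAP1 (limma adjusted p 0.188). With a correction for the GC content of genes, both were called lower at medium MYC, at -0.22 for NFE2L2 (limma adjusted p 0.000564) and -0.20 for KEAP1 (limma adjusted p 0.000365). That correction moved the median log2 change of all genes from 0.02 to -0.09, so most of each shift was shared with the median of all genes. Without the first high MYC control, NFE2L2 was also called, at -0.14 (limma adjusted p 0.0247). The ratio of KEAP1 to NFE2L2 per kilobase of transcript within a library, which no scaling between libraries enters, averaged 1.31 ± 0.14 in high MYC controls and 1.33 ± 0.05 in medium MYC controls (SD, n = 4 each).

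**Figure D1:**
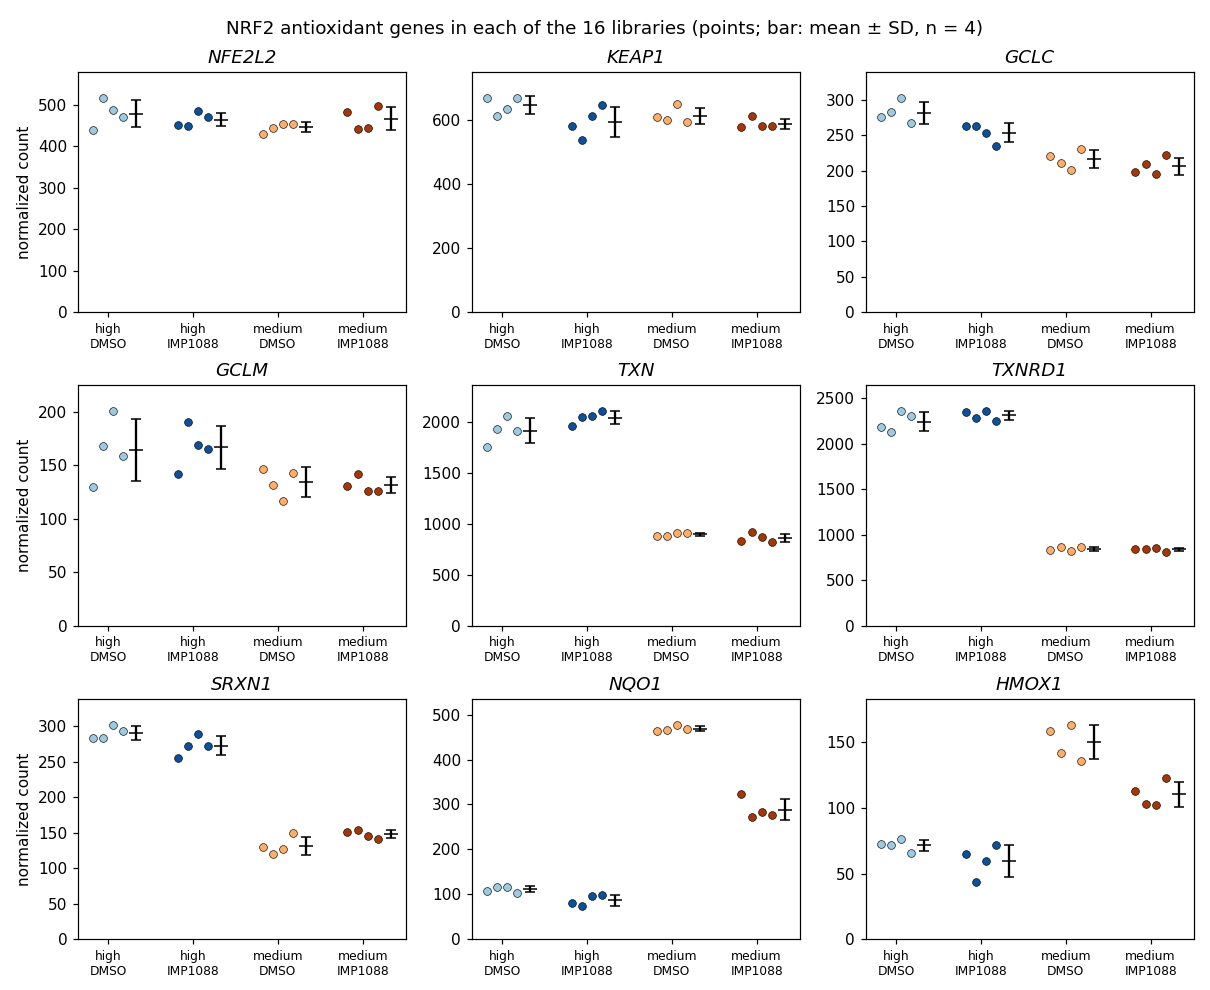
Normalized count of each of the 9 genes in each of the 16 libraries, 1 panel per gene with its own axis from 0, points for libraries and bars for group means with SD (n = 4). NQO1 and HMOX1 stand higher at medium MYC, TXNRD1, TXN and SRXN1 stand lower there without overlap, and the NFE2L2 groups overlap, with means from 446 to 479.

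Glutathione synthesis begins with glutamate-cysteine ligase, whose catalytic subunit is GCLC and whose modifier subunit is GCLM. GCLC (ENSG00000001084, chromosome 6, 53497341 to 53616970, minus strand) had 276, 283, 304 and 267 normalized counts in high MYC controls and 221, 211, 201 and 231 in medium MYC controls. All 4 medium MYC controls were below all 4 high MYC controls, a log2 change of -0.38 (SE 0.07, adjusted p by limma 2.15e-05), or 1.31-fold lower. With the inhibitor GCLC had 263, 264, 254 and 235 normalized counts at high MYC and 198, 209.6, 195 and 222 at medium MYC. The inhibitor libraries at high MYC lay below their controls without overlap, but the log2 change of -0.15 (95% interval -0.29 to -0.01) did not pass the test (limma adjusted p 0.0993). At medium MYC the groups overlapped and the log2 change was -0.07 (limma adjusted p 0.505).

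GCLM (ENSG00000023909, chromosome 1, 93885205 to 93909456, minus strand) varied widely between replicates. Its values were 129.5, 168, 201 and 159 normalized counts in high MYC controls and 142, 191, 169 and 165 with the inhibitor. At medium MYC it had 147, 132, 116 and 143 in controls and 130.5, 142, 126 and 126 with the inhibitor. Groups overlapped in every comparison of inhibitor with control, and its log2 change was 0.03 (95% interval -0.21 to 0.27, limma adjusted p 0.883) at high MYC and -0.03 (limma adjusted p 0.879) at medium MYC.

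Between MYC levels, GCLM was lower at medium MYC among controls by a log2 change of -0.28 (SE 0.11, adjusted p by limma 0.0349), with overlap between the groups. The call was lost in 8 of 22 alternatives. Without high MYC control 3 the log2 change was -0.17 (limma adjusted p 0.165), and in the other 7 its size moved by less than 1.5 times. Without high MYC control 2 the limma adjusted p was 0.0731. Leaving out medium MYC control 2 or 3 gave 0.0648 or 0.119. With no filter it was 0.054, with no mean trend 0.0501, in a fit of the compared groups only 0.060, and with a replicate block 0.0598. Among inhibitor libraries the log2 change between MYC levels was -0.34 (SE 0.11, adjusted p by limma 0.0112) for GCLM and -0.30 (SE 0.07, adjusted p by limma 0.000336) for GCLC. The ratio of GCLC to GCLM per kilobase lay between group means of 1.96 ± 0.28 and 2.23 ± 0.34 (SD, n = 4 each), a difference within the spread.

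The thioredoxin system held the most abundant members, and they differed between MYC levels. Thioredoxin, encoded by TXN, reduces disulfides in other proteins, and thioredoxin reductase 1, encoded by TXNRD1, uses NADPH to reduce thioredoxin again. TXNRD1 (ENSG00000198431, chromosome 12, 104215779 to 104350305, plus strand) had 2186, 2125, 2357 and 2302 normalized counts in high MYC controls and 828, 859, 815 and 858 in medium MYC controls. Every medium MYC control was below every high MYC control, a log2 change of -1.41 (SE 0.04, adjusted p by limma 3.10e-19), or 2.67-fold lower. Of all genes tested, 5.25% had a lower log2 change in this comparison.

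With the inhibitor, TXNRD1 had 2343, 2286, 2356 and 2253 normalized counts at high MYC and 837, 842, 858 and 813 at medium MYC. These values overlapped those of the matching controls. The log2 change was 0.04 (95% interval -0.03 to 0.12, limma adjusted p 0.409) at high MYC and -0.00 (95% interval -0.08 to 0.07, limma adjusted p 0.946) at medium MYC.

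TXN (ENSG00000136810, chromosome 9, 110243811 to 110256640, minus strand) had 1756, 1933, 2057 and 1916 normalized counts in high MYC controls and 877, 882, 914 and 910.1 in medium MYC controls. The groups did not overlap, and TXN was 2.13-fold lower at medium MYC (log2 change -1.09, SE 0.04, adjusted p by limma 9.36e-16). Inhibitor libraries had 1965, 2051, 2056 and 2108 at high MYC and 835, 916, 874 and 821 at medium MYC, overlapping their controls. The log2 change with the inhibitor was 0.10 (95% interval 0.01 to 0.19, limma adjusted p 0.109) at high MYC and -0.06 (limma adjusted p 0.372) at medium MYC. At high MYC it passed the threshold under quantile normalization (0.13, limma adjusted p 0.0327) and without the third control library (0.13, limma adjusted p 0.0288). Without control library 1 it was 0.06 (limma adjusted p 0.376). The annotation holds 7 pseudogenes named after TXN, so its count is uncertain to the extent that their reads were shared.

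TXNRD1 and TXN were not lowered by exactly the same factor. Within a library, TXNRD1 per kilobase stood at 0.259 ± 0.014 of TXN per kilobase in high MYC controls and at 0.207 ± 0.0075 in medium MYC controls (SD, n = 4 each). With the inhibitor the ratio was 0.250 ± 0.012 and 0.215 ± 0.0081 (SD, n = 4 each). These within-library ratios were chosen after the values had been seen and were not tested.

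Sulfiredoxin, encoded by SRXN1, restores peroxiredoxins that have been over-oxidized. SRXN1 (ENSG00000271303, chromosome 20, 646615 to 653370, minus strand) had 283, 283, 302 and 294 normalized counts in high MYC controls and 129, 119.9, 127 and 150.2 in medium MYC controls. It was 2.21-fold lower at medium MYC without overlap (log2 change -1.14, SE 0.07, adjusted p by limma 2.94e-12). With the inhibitor it had 256, 273, 289 and 272 at high MYC and 150.3, 154, 145 and 141 at medium MYC.

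The direction of the SRXN1 log2 change with the inhibitor was negative at high MYC, at -0.09 (95% interval -0.24 to 0.06, limma adjusted p 0.372), and positive at medium MYC, at 0.17 (95% interval 0.02 to 0.32, limma adjusted p 0.0883). Neither passed the threshold, and the groups overlapped at both MYC levels, at medium MYC through a single control library of 150.2. Without that library the change at medium MYC was 0.23 (limma adjusted p 0.0166), and with equal library totals it was 0.20 (limma adjusted p 0.0427), both past the threshold.

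NQO1, the quinone reductase that uses NADPH or NADH to reduce quinones to hydroquinones, changed most. NQO1 (ENSG00000181019, chromosome 16, 69706996 to 69726951, minus strand) had 107, 116, 117 and 103 normalized counts in high MYC controls and 463, 467, 478 and 468 in medium MYC controls. The groups were far apart, with NQO1 4.22-fold higher at medium MYC (log2 change 2.08, SE 0.09, adjusted p by limma 2.40e-15). This was above the log2 change of 95.1% of all genes tested.

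With the inhibitor, NQO1 had 79.6, 73.2, 95.1 and 97.7 normalized counts at high MYC and 323, 272, 282 and 276 at medium MYC. All 4 inhibitor libraries were below all 4 controls at both MYC levels. At high MYC it fell by 22.1%, a log2 change of -0.36 (SE 0.09, 95% interval -0.54 to -0.18, limma adjusted p 0.00344). At medium MYC it fell by 38.6%, a log2 change of -0.70 (SE 0.09, 95% interval -0.88 to -0.52, limma adjusted p 2.32e-06). At each level the call was kept in all 22 alternatives, where the log2 change ran from -0.42 to -0.29 at high MYC and from -0.76 to -0.67 at medium MYC.

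NQO1 and TXNRD1, both textbook NRF2 targets, thus had opposite directions between MYC levels. Within a library NQO1 per kilobase was 0.0667 ± 0.0054 (SD, n = 4) of TXNRD1 per kilobase in high MYC controls, with values from 0.0603 to 0.0735. In medium MYC controls the ratio was 0.754 ± 0.027 (SD, n = 4), from 0.733 to 0.791. With the inhibitor it was 0.0505 ± 0.0072 at high MYC and 0.465 ± 0.038 at medium MYC (SD, n = 4 each), below every control at the same MYC level. The ratio does not depend on how libraries were scaled to each other.

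HMOX1, heme oxygenase 1, opens the heme ring to biliverdin and releases iron and carbon monoxide. HMOX1 (ENSG00000100292, chromosome 22, 35380361 to 35394214, plus strand) had 72.3, 71.9, 76.1 and 65.9 normalized counts in high MYC controls and 159, 142, 164 and 136 in medium MYC controls. It was 2.08-fold higher at medium MYC without overlap (log2 change 1.06, SE 0.13, adjusted p by limma 1.44e-07). With between 39 and 187 reads per library, it was among the members with the fewest reads.

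With the inhibitor, HMOX1 had 64.5, 43.3, 59.3 and 71.7 normalized counts at high MYC and 113, 103, 102 and 123 at medium MYC. The groups overlapped at high MYC and did not at medium MYC. At medium MYC HMOX1 fell by 26.3%, a log2 change of -0.44 (SE 0.13, 95% interval -0.70 to -0.18, limma adjusted p 0.0127). At high MYC the log2 change was -0.28 (SE 0.13, 95% interval -0.54 to -0.01, limma adjusted p 0.113), which single libraries moved both ways. Without the fourth inhibitor library it was -0.37 and passed the threshold (limma adjusted p 0.0385), and without inhibitor library 2 it was -0.13 (limma adjusted p 0.419).

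The genes whose response to the inhibitor was most like that of NQO1 over the 16 libraries were MYO1E, CPPED1 and EPB41L1, with Pearson correlations of 0.966, 0.964 and 0.958. Here each library's log2 value was taken relative to the control mean of its MYC level, and 9564 genes with a symbol and a mean of at least 100 were compared. MYO1E had log2 changes of -0.45 at high and -1.001 at medium MYC, CPPED1 had -0.32 and -0.57, and EPB41L1 had -0.52 and -0.97. For HMOX1 the most alike were TBC1D9B (0.914), RNF166 (0.876) and WASH6P (0.874). Their log2 changes were -0.12, -0.24 and -0.12 at high MYC and -0.24, -0.34 and -0.22 at medium MYC. At high MYC only RNF166 among them was called (limma adjusted p 0.0303). The libraries share their scaling, so these correlations are a description only.

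Counted over the members, the inhibitor comparison at high MYC called 1 of 9, NQO1, which was lower. Of all genes tested there, 26.8% were called, 10.5% higher and 16.3% lower, so the members' count is not above the background. Under quantile normalization the split over all genes was more even, with 1727 higher and 1770 lower against 1442 and 2247 as tested. The median log2 change of the members was -0.09 and that of all genes -0.02. Groups did not overlap for 2 of the 9 members, GCLC and NQO1, and for 26.7% of all genes.

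At medium MYC, 2 of 9 members were called, NQO1 and HMOX1, both lower, beside 26.3% of all genes called, 11.7% higher and 14.6% lower. That balance turned with the scaling, from 1606 higher and 2012 lower as tested to 1962 and 1659 with equal library totals and 1963 and 1876 under quantile normalization. The share of members called was again near the background. Their median log2 change was -0.06 against -0.01 for all genes, and groups did not overlap for 2 members against 27.9% of all genes. In size, 1.64% of genes had a log2 change below that of NQO1 and 5.33% below that of HMOX1.

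**Figure D2:**
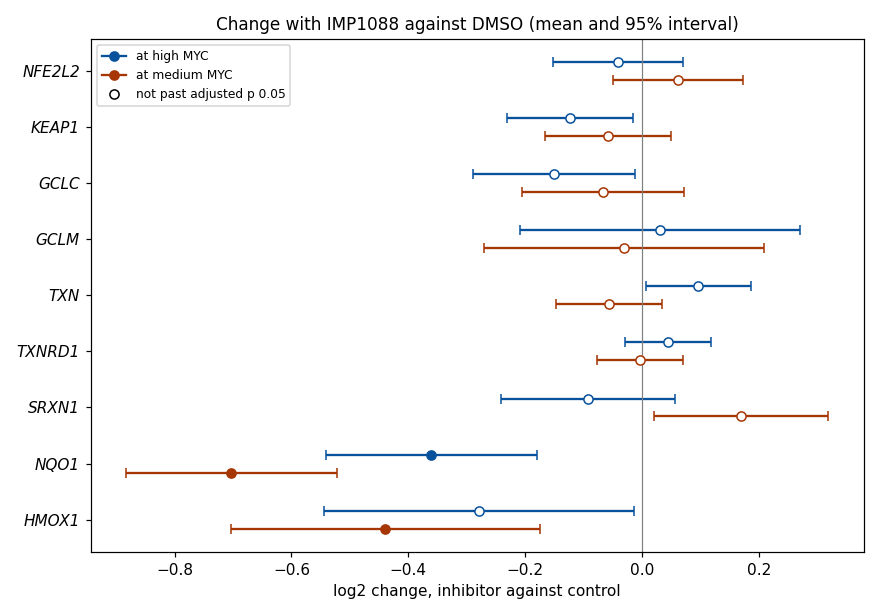
log2 change of each of the 9 genes with IMP1088 against DMSO, with 95% intervals from limma, at high MYC and at medium MYC. Filled points mark genes called at an adjusted p-value under 0.05: NQO1 at both levels (-0.36 and -0.70) and HMOX1 at medium MYC (-0.44).

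A difference in the inhibitor response between MYC levels was tested as the change at high MYC minus the change at medium MYC. No member was called with limma, edgeR or DESeq2, beside 8.63% of all genes called with limma, 3.31% higher and 5.33% lower. At an unadjusted limma p-value under 0.05 there were 3 of the 9 members, beside 2924 of the 13765 genes tested, so this count is near the background. The difference was 0.34 for NQO1 (95% interval 0.09 to 0.60, limma adjusted p 0.0940), 0.15 for TXN (0.03 to 0.28, limma adjusted p 0.140) and -0.26 for SRXN1 (-0.47 to -0.05, limma adjusted p 0.123). For HMOX1 it was 0.16 (-0.21 to 0.53, limma adjusted p 0.678), so the call at medium MYC alone does not show a difference between the levels.

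Calls on these differences turned on single libraries or on the GC correction. Without the second inhibitor library at high MYC, NQO1 was called (0.42, limma adjusted p 0.0267), and without the fourth medium MYC control, SRXN1 was called (-0.33, limma adjusted p 0.0359). With the GC correction TXN was called (0.18, limma adjusted p 0.0482).

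Between MYC levels among controls, 7 of 9 members were called, 2 higher and 5 lower at medium MYC. Of all genes tested, 76.2% were called, 38.9% higher and 37.3% lower, so a call by itself was common there. The balance of 5355 higher and 5130 lower turned to 4634 and 6018 with the GC correction and 5075 and 5526 under quantile normalization. These control libraries also enter the inhibitor comparisons, so the comparisons are not independent of each other. The members' median log2 change was -0.28 beside 0.02 for all genes, and 6 of 9 members were without overlap beside 69.2% of all genes. With the inhibitor the same comparison also called 7 of 9, 2 higher and 5 lower, beside 77.5% of all genes, 39.7% higher and 37.8% lower. The members' median there was -0.30 beside 0.02, and 6 of 9 were without overlap beside 72.6% of all genes.

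In inhibitor libraries, medium against high MYC gave log2 changes of 1.73 (SE 0.09) for NQO1, 0.90 (SE 0.13) for HMOX1, -1.46 (SE 0.04) for TXNRD1, -1.25 (SE 0.04) for TXN and -0.88 (SE 0.07) for SRXN1. These limma adjusted p ran from 1.69e-19 for TXNRD1 to 1.52e-06 for HMOX1. NFE2L2 and KEAP1 stood at 0.00 and -0.01 (limma adjusted p 0.955 and 0.856). With the GC correction, which moved the median of all genes from 0.02 to -0.11, both were called lower, at -0.13 (limma adjusted p 0.0202) and -0.15 (limma adjusted p 0.00619).

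Exact permutation tests of 4 against 4 libraries, two-sided, were run for the 9 members in the 4 comparisons of groups. Of these 36 tests, 16 gave the smallest p-value the 70 splits allow, 0.0286, and no exact test passed after adjustment over the 36, with a smallest adjusted value of 0.0643.

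**Figure D3:**
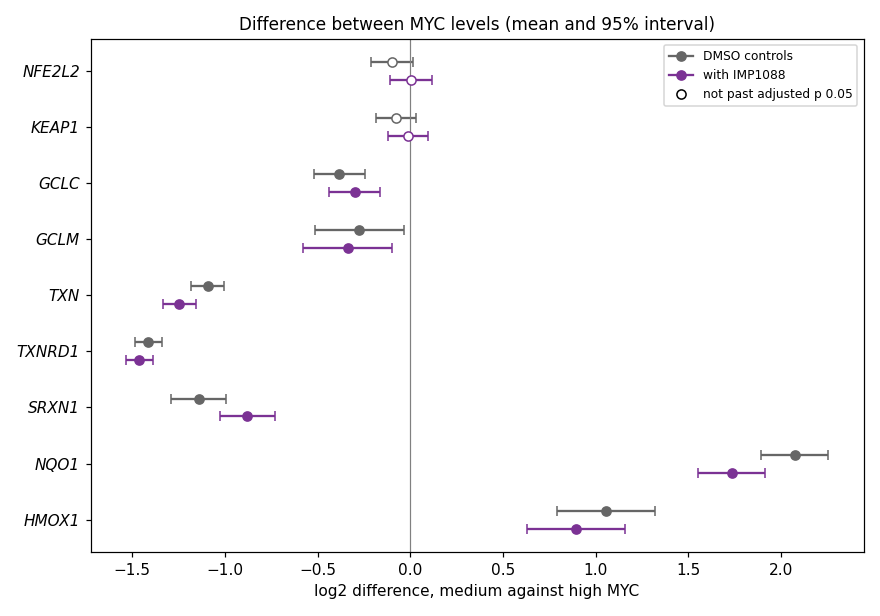
log2 change of each of the 9 genes at medium against high MYC, with 95% intervals from limma, in DMSO libraries and in IMP1088 libraries. NQO1 and HMOX1 lie above 0, TXNRD1, TXN, SRXN1, GCLC and GCLM lie below 0, and NFE2L2 and KEAP1 lie near 0.

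Levels per kilobase of transcript set the members against each other. In high MYC controls TXN stood at 2204 ± 142 normalized counts per kilobase, TXNRD1 at 571 ± 27.0, KEAP1 at 219 ± 9.43 and NFE2L2 at 168 ± 11.4 (SD, n = 4 each). SRXN1 followed at 108 ± 3.47 and GCLC at 74.0 ± 4.08. HMOX1 at 39.3 ± 2.31, NQO1 at 38.0 ± 2.35 and GCLM at 33.8 ± 6.05 were last and differed by less than their spread.

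In medium MYC controls TXN was still first, at 1031 ± 21.7 per kilobase, and TXNRD1 at 214 ± 5.62 no longer stood apart from KEAP1 at 208 ± 8.51. NQO1 had moved up to 161 ± 2.17, next to NFE2L2 at 156 ± 3.99. HMOX1 was at 82.4 ± 7.17, GCLC at 56.7 ± 3.31, SRXN1 at 48.8 ± 4.83 and GCLM at 27.7 ± 2.82.

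Other genes of the pathway were taken from a list of 76 genes in 7 roles, of which 75 were found and 64 tested. With the inhibitor at high MYC 4 were higher, 19 lower and 41 not called, with a median log2 change of -0.09 beside -0.02 for all genes, of which 10.5% were called higher and 16.3% lower. At medium MYC 13 were higher, 18 lower and 33 not called, with a median of -0.03 beside -0.01 for all genes, of which 11.7% were called higher and 14.6% lower. Between MYC levels among controls 22 were higher and 31 lower at medium MYC, with 11 not called, beside 76.2% of all genes called, 38.9% higher and 37.3% lower. The difference between the responses was called for 7 of the 64, in 1 case positive and in 6 negative, beside 8.63% of all genes, 3.31% positive and 5.33% negative. Beside SQSTM1, SLC3A2, SESN2 and TXNIP, described with their roles, these were NFE2L1 (-0.27), GPX4 (-0.37) and CHAC2 (0.74), which are named here after their values were seen.

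Among the 11 tested genes that control NRF2 or compete with it, 3 rose and none fell at high MYC, and 5 rose and none fell at medium MYC, beside 10.5% and 11.7% of all genes called higher. BACH2, a B cell repressor that binds related elements, rose from 342 ± 17.9 to 575 ± 26.1 at high MYC (log2 change 0.75, SE 0.06, adjusted p by limma 2.58e-09). At medium MYC it rose from 206 ± 8.67 to 362 ± 20.2 (SD, n = 4; log2 change 0.81, SE 0.06, adjusted p by limma 5.64e-10). BACH1, the heme-sensitive repressor of HMOX1, rose at medium MYC (log2 change 0.39, limma adjusted p 0.000106), and at high MYC its log2 change was 0.14 (limma adjusted p 0.119). MAFG, a small MAF partner of NRF2 and of the BACH proteins, rose by 0.21 and 0.19 on the log2 scale at high and medium MYC (limma adjusted p 0.0301 and 0.0439).

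SQSTM1, the autophagy receptor p62 that binds KEAP1, rose at medium MYC (log2 change 0.47, limma adjusted p 1.56e-07) and had a log2 change of 0.03 at high MYC (limma adjusted p 0.719). That difference between MYC levels passed the test (-0.44, limma adjusted p 0.000137). Among controls MAFF was higher at medium MYC, with means of 5.49 and 68.8 normalized counts, while MAFK and NFE2L3 were lower there, with log2 changes of -1.59 and -1.10.

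NADPH is an electron source of NQO1, TXNRD1 and glutathione reductase. Of the 5 genes of NADPH supply counted here, not all of which make NADPH, 4 fell at high MYC and 3 at medium MYC. None rose, beside 16.3% and 14.6% of all genes called lower. IDH1 fell from 586 to 411 at high MYC and from 1024 to 674 at medium MYC, with log2 changes of -0.51 (limma adjusted p 9.61e-09) and -0.60 (limma adjusted p 5.43e-10). The pentose phosphate enzymes TKT and TALDO1, which do not make NADPH themselves, fell by less. Log2 changes were -0.12 and -0.27 for TKT and -0.15 and -0.18 for TALDO1. Between MYC levels the genes of this role did not move together, since IDH1 was higher at medium MYC (0.81) and TKT was lower (-1.33).

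Of 17 genes of glutathione synthesis and use, 6 fell and none rose at high MYC, and 8 fell and 3 rose at medium MYC, beside 26.8% and 26.3% of all genes called in either direction. SLC7A11, the cystine carrier, was among those that differed most between MYC levels. It had 169 normalized counts in high MYC controls and 1621 in medium MYC controls (log2 change 3.27, limma adjusted p 6.79e-18). Its partner chain SLC3A2 went the other way, from 1125 to 462 (log2 change -1.28). With the inhibitor SLC3A2 fell at high MYC (-0.15, limma adjusted p 0.0117) and rose at medium MYC (0.55, limma adjusted p 2.28e-09), and this difference passed the test (-0.70, limma adjusted p 6.8e-08).

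CHAC1, which degrades glutathione, rose at medium MYC from 12.0 to 114 normalized counts (log2 change 3.20, SE 0.47, adjusted p by limma 2.33e-05). At high MYC it had 4.49 and 8.78 (limma adjusted p 0.0721), and the difference between the levels did not pass the test (limma adjusted p 0.0671). The glutathione transferase GSTM4 fell at both levels, with log2 changes of -0.58 and -0.46 (limma adjusted p 0.000314 and 0.00255), as did MGST3 with -0.86 and -0.98 (limma adjusted p 0.0343 and 0.0165).

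Of 12 thioredoxin and peroxiredoxin genes, 4 fell and none rose at high MYC, while 3 fell and 3 rose at medium MYC, beside the same 26.8% and 26.3% of all genes. SESN2, a stress-induced sestrin, rose at medium MYC from 447 to 712 normalized counts (log2 change 0.67, limma adjusted p 4.2e-07) and had 0.06 at high MYC (limma adjusted p 0.611). The difference passed the test (-0.61, limma adjusted p 0.000409). TXNIP, which binds and inhibits thioredoxin, fell at high MYC (-0.23, limma adjusted p 8.44e-05), with 0.01 at medium MYC, and this difference also passed (-0.24, limma adjusted p 0.00522). PRDX1 and PRDX4, peroxidases that use thioredoxin, were lower at medium MYC among controls by log2 changes of -1.12 and -2.21.

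Of 8 genes of heme and iron handling, 3 fell at high MYC and 1 at medium MYC, with none rising, beside 16.3% and 14.6% of all genes called lower. HMOX2, the constitutive heme oxygenase, fell at both, with log2 changes of -0.34 (limma adjusted p 7.2e-05) and -0.37 (limma adjusted p 2.89e-05). At high MYC the biliverdin reductase BLVRB and the ferritin chain FTH1 also fell, by 0.47 and 0.15 on the log2 scale (limma adjusted p 0.0327 and 0.0369). Of 8 genes of quinone, aldehyde and drug handling none passed at high MYC, beside 26.8% of all genes called in either direction. At medium MYC UGDH and AKR1A1 rose and CBR1 fell (log2 changes 0.34, 0.19 and -0.30), beside 26.3% of all genes. CAT, catalase, fell at both levels, with log2 changes of -0.16 and -0.20, and the superoxide dismutase SOD1 rose at high MYC with 0.10.

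Exons of NFE2L2, GCLC, NQO1 and SRXN1 overlap those of 3, 2, 1 and 1 other annotated genes, and whether the authors' counting used strand is not given in the sources used here. For SRXN1 the overlap is on the same strand and reaches 2292 bases of a transcript of 2698, and NFE2L2 and GCLC have same-strand overlaps of 205 and 304 bases, which counting by strand would not separate. The counts of these 4 members are uncertain to that extent. The coefficient of variation between replicates ran from 1.35% to 20.2% over the 36 combinations of member and group, with a median of 5.61%, and counting error alone gave from 2.10% to 13.0%.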

How the data were processed

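RNA from 16 P493-6 samples was isolated with a QIAGEN miRNeasy kit, made into cDNA with a Nugen kit and sequenced on an Illumina HiSeq, per the labels' protocols. The submitters' processing notes list STAR 2.5.2a, RSEM 1.2.31, DESeq2 1.16.1 and GRCh38, without role or order. The annotation and the use of strand are not given in the sources used here. The authors deposited 1 table of normalized counts, a non-negative signal, for 58051 Ensembl identifiers. Each library's values were whole multiples of 1 step, and 100% of them came out as whole reads within a tolerance of 0.001. In 2 libraries that step is close to 1. The steps are the inverse of size factors from 0.858 to 1.33. Symbols came from a table that matched 56948 identifiers, and positions from GENCODE release 29, which matched 57447.

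log2(value + 1) was fitted with limma 3.58.1 in R 4.3.3 over 13765 genes averaging at least 10 normalized counts, with 4 group means, a mean trend and Benjamini-Hochberg adjustment over all genes. Log2 changes are on this scale, which understates those of low genes. Calls are two-sided at an adjusted p-value under 0.05. limma called 3689 genes with the inhibitor at high MYC and 3618 at medium MYC. edgeR on the recovered reads called 3703 and 3858, and DESeq2 called 3165 and 3330. Alternatives were count tests of the recovered reads (edgeR 4.0.16, DESeq2 1.42.0), other scalings, pseudocounts of 0.1 and 10, other filters, no mean trend, a GC correction, a replicate block and leaving out each library. Blocks within each treatment for the comparisons of MYC levels were chosen after seeing the data.

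The members and lists were chosen with earlier results of these data known. Named genes were all 9 members, and from each role of the wider list up to 4 called with the inhibitor and up to 3 called between MYC levels with the largest log2 changes. Of these, and of the markers, a few are not reported here. The 3 genes most like each member called with the inhibitor were also named. No replicate pair was as alike as sampling noise, with a chi-square of 1.73 to 10.9 per degree of freedom. Intervals from reads cover counting error only.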

Additional observations from a re-analysis of the deposited data

Results flagged for a closer look

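KEAP1 in the second medium MYC library with IMP1088 had 613 normalized counts and stood apart from the other 3 libraries of its group, at 579, 581 and 583. The gap to its nearest neighbour was 0.888 of the group's range; this is above Dixon's critical value for 4 libraries. It was the only 1 flagged among 36 combinations of member and group, where chance flags about 1 in 20.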

How the results depend on the processing

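Of 1048 values of the 9 members under alternative settings, 996 kept their direction and their side of the threshold, 17 gained a call, 8 lost one and 27 changed sign. The calls of NQO1 at both MYC levels and of HMOX1 at medium MYC were kept wherever the gene was tested. The number of members called with the inhibitor at high MYC was 2 under quantile normalization and ran from 1 to 3 when 1 library was left out. At medium MYC it was 1 with a filter at a mean of 100, where HMOX1 is not tested, and 2 to 3 with 1 library left out. For the difference between responses it was 1 with the GC correction, 1 with that correction and a replicate block, and 0 to 1 with 1 library left out.

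Most sign changes concerned values near 0. NFE2L2 at high MYC was 0.0052 under quantile normalization, and GCLM there was -0.029 with the GC correction and -0.029 with the block added. KEAP1 at medium MYC was 0.017 with the GC correction and 0.017 with the block added. TXNRD1 at medium MYC was 0.023 with equal totals, 0.025 under quantile normalization and 0.0056 with edgeR. Between MYC levels in inhibitor libraries, NFE2L2 was -0.13 with the GC correction (called), -0.13 with the block added (called), -0.0042 with edgeR and -0.0010 with DESeq2, and KEAP1 was 0.0017 with equal totals. With 1 library left out, GCLM ran from -0.077 to 0.13 at high MYC, from -0.099 to 0.013 at medium MYC and from -0.046 to 0.16 for the difference, TXNRD1 at medium MYC from -0.019 to 0.0096, and NFE2L2 and KEAP1 in inhibitor libraries from -0.028 to 0.030 and from -0.058 to 0.031. The cause of these changes was not tested.

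Same-numbered libraries did not deviate together on average (mean correlation -0.0715 at high MYC and -0.0235 at medium MYC). Between high and medium MYC controls the mean was 0.024, with the highest pair at 0.239. Nothing in the labels says what the numbers share, and the main fit did not pair them. With a replicate block 3496 genes were called at high MYC, 3442 at medium MYC and 1026 for the difference, against 3689, 3618 and 1188, and GCLM between MYC levels was the member that lost its call. Depth limits HMOX1 most, with as few as 39 reads in a library.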
